A study of Mus musculus with 2 samples.

Results

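The cells described here are mast and basophil progenitors of the mouse fetal liver, picked from single-cell RNA data by their transcripts. A cell entered the gate when its unique molecular identifiers (UMIs, each marking 1 captured transcript) for Ms4a2, Mcpt8, Gzmb and Fcer1a summed to at least 4. It also had to hold fewer than 30 UMIs of the neutrophil genes S100a8 and S100a9 together, fewer than 10 of the platelet gene Pf4, and fewer than 30 of the myeloid granule genes Mpo and Prtn3 together. Of 14101 cells that passed the quality limits, 80 met the gate, 43 of 7001 in the Brd9 knockout library and 37 of 7100 in the control library. The genes of the gate were used to choose the cells, so their levels are given as a description and support nothing.

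Both libraries came from C57BL/6 embryos at E14.5, and both were made from fetal liver cells without lineage markers but with the Kit receptor, run on the 10x Genomics 3' chemistry. The knockout embryos were CD45.2(+) Vav1-iCre Brd9fl/fl, in which the Vav1 promoter drives the recombinase in blood cells. The control embryos were CD45.2(+) Brd9fl/fl, so floxed Brd9 is shared by both groups and only the recombinase differs. No library carried Vav1-iCre without floxed Brd9, so what the recombinase does by itself cannot be told apart from the deletion. Each genotype had 1 library, and how many embryos went into each is not stated in the labels. Cells of 1 library are not replicates, so the differences described here have no check by replication and no test was made. The bounds in parentheses are exact 95% bounds for counting error, and nothing else enters them.

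Mast cells and basophils are granulocytes that bind IgE through the high-affinity receptor FceRI and release histamine, proteases and lipid mediators. Both arise from progenitors in which GATA2 is active. Connective-tissue mast cells of mice store carboxypeptidase A3 (Cpa3), the chymases Cma1 and Mcpt4 and tryptases, whereas mouse basophils make the protease Mcpt8 and carry CD200R3. Progenitors able to form both lineages have been described in mice, and whether both signatures meet in 1 cell can be asked of these data.

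The sequences just before the start of 5 genes on which the results turn are shown because these genes mark the branches. They are RefSeq sequences of GRCm38.p6, read 5′ to 3′ on the gene's strand and ending at the base before the annotated start. Capitals mark GATA words, which are AGATAA as well as AGATAG and likewise TGATAA together with TGATAG, and the RUNX word TGTGGT, searched on both strands, and none of the marked words overlap. GATA words occur in 16% and the RUNX word in 8.40% of 32851 RefSeq windows of 150 bases before a start. Cpa3, at chr3:20242182-20242331 on the minus strand, holds a GATA word that begins 46 bases and a RUNX word that begins 73 bases before the start. Ms4a2, at chr19:11623720-11623869 on the minus strand, holds GATA words that begin 37 and 11 bases before it.
Cpa3: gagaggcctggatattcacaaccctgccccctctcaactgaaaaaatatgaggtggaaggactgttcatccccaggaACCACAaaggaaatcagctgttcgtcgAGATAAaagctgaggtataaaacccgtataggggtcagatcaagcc
Ms4a2: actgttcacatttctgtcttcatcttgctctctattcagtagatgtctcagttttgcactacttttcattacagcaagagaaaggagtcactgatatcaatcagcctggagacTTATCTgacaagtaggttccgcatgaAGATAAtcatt
Cma1, at chr14:55944676-55944825 on the minus strand, holds 1 GATA word, 79 bases before the start. Gzmb, at chr14:56262335-56262484 on the minus strand, holds RUNX words 93 and 34 bases before it. Mcpt8 holds a RUNX word 139 bases before its RefSeq start and no GATA word in the window. Only the outer 74 bases of the Mcpt8 window, at chr14:56085274-56085347 on the minus strand, are printed, since the GENCODE transcript covers the other 76. Cma1, Mcpt8 and Gzmb lie within the same protease cluster of chromosome 14.
Cma1: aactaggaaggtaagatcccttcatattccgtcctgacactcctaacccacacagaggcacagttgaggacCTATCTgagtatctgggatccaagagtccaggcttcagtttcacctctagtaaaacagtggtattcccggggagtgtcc
Gzmb: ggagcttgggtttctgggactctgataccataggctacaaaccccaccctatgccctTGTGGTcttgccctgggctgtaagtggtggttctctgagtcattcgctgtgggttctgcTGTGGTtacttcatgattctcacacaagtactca
Mcpt8: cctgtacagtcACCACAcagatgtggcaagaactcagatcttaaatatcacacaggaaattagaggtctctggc
A word is a match of letters only. Levels are given in CPM, the UMIs of a gene summed over the gated cells of a library, per 1000000 UMIs of those cells. In the knockout and control library, Gata2 stood at 528 and 374 CPM and had a UMI in all 43 and all 37 cells. Runx1 stood at 1726 and 1829 CPM and also had a UMI in every gated cell.

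Gated cells made up 0.614% of the knockout library (0.445 to 0.826) and 0.521% of the control library (0.367 to 0.718), and the shares had a ratio of 1.18 (0.760 to 1.83, a log-normal interval). The interval of the ratio includes 1, so a difference in share was not detectable at this number of cells. Gated cells were shallow, with median depths of 19434 (knockout) and 21129 UMIs (control), against 36376.5 and 39006 in the other kept cells. The gate was also applied to the 6777 knockout and 6919 control cells with at least 15000 UMIs, each thinned to 15000. Of these, 24 knockout and 35 control cells met the rule, a ratio of 0.700 (0.417 to 1.18). Shallower members, 14 in the knockout and 9 in the control, were left out. In the control, 28 members had at least 15000 UMIs, fewer than the 35 thinned cells that met the rule. Cells outside the gate thus entered as well, since thinning also lowers the counts under the upper limits. The ratios therefore cover different cells. The limit on Mpo and Prtn3 left out 56 knockout and 61 control cells, more than it kept. Without it the gate held 99 and 98 cells, a ratio of 1.02 (0.776 to 1.35).

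Cells near the limits were common. The sum of the gate genes was exactly 4 in 9 knockout and 3 control members, and 4 knockout and 7 control cells with a sum of 3 otherwise met the rule. Members with 20 to 29 UMIs of Mpo and Prtn3 numbered 10 and 9, and cells left out with 30 to 39 numbered 6 and 3.

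The 2 libraries shared 15 cell barcodes among kept cells. They also differed in sex, with 58.4% female among kept knockout cells and 22.5% among kept control cells. In the gate, 18 knockout and 5 control cells were female and 24 and 27 were male. A further 5 control cells, and 0 knockout cells, carried transcripts of both sexes and had a median of 57501 UMIs, more than a usual gated cell. Scrublet, a doublet caller, marked 1 gated cell in each library. At least 10 UMIs of 8 erythroid genes were found in 1 knockout and 7 control members, and the part of these cells in the results was not tested.

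The markers bore out the label of the gate in part. Genes of both lineages that the gate did not use were far above the other kept cells. Cd200r3, the basophil receptor, stood at 268 CPM (236 to 304) in knockout and 161 CPM (137 to 188) in control members, which was 109-fold and 126-fold the level of other cells. Cpa3 stood at 1245 CPM (1174 to 1318) and 765 CPM (711 to 822), which was 40.5-fold and 35.8-fold. Hdc, the enzyme that makes histamine, stood at 439 and 571 CPM and had a UMI in 40 of 43 and 36 of 37 members. Mature mast cell genes were nearly absent: Mcpt1, Mcpt2, Mcpt4, Tpsb2, Mrgprb1 and Mrgprb2 were at 0 UMIs in both libraries.

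Other genes that stood out from the remaining cells in both libraries, ranked by the lower of the 2 ratios, included Cyp11a1, Scin, Ccl3, Csf1, Trbc1, Tmem71, Il4, Lgals3 and Ifitm1. Cyp11a1, the enzyme that starts steroid synthesis from cholesterol, stood at 101 and 90.3 CPM in knockout and control members, 245-fold and 640-fold the other cells. Scin, which encodes the actin-severing protein scinderin, stood at 69.8 and 79.9 CPM. Il4, the type 2 cytokine, stood at 63.4 and 87.2 CPM and had a UMI in 33 of 43 and 27 of 37 members. Galectin-3 (Lgals3) stood at 170 and 95.5 CPM. Gpr183, Papss2, Padi2, Fam129a, Rnase12 and Galnt6 completed the 20 genes, with the 3 gate genes Gzmb, Ms4a2 and Mcpt8.

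Of the gate genes, Ms4a2, the beta chain of FceRI, had the most UMIs in each library, 228 and 254. Its level was 245 CPM (214 to 279) in knockout and 264 CPM (232 to 298) in control members, with a UMI in 37 of 43 and 31 of 37 members. Fcer1a, the IgE-binding alpha chain, had 10 UMIs in 4 knockout cells and 20 UMIs in 6 control cells. Gzmb, which encodes granzyme B, had 59 UMIs in 8 knockout cells and 120 UMIs in 12 control cells. Mcpt8 had 56 UMIs in 10 knockout cells and 195 UMIs in 9 control cells, of which 1 control cell held 82, or 42.1%.

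**Figure D1:**
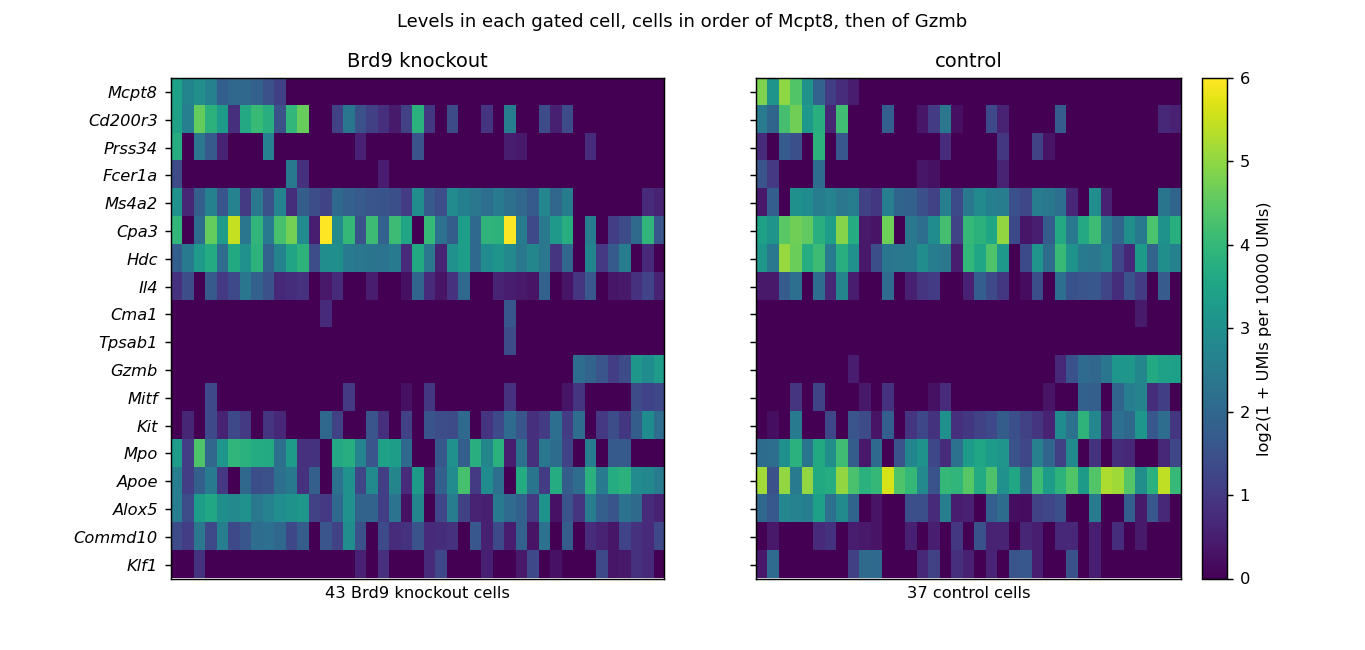
Level of 18 genes (rows) in each gated cell (columns), as log2 of 1 plus UMIs per 10000 UMIs, with cells ordered by Mcpt8 and then by Gzmb. Mcpt8 sits at the left of both panels (10 knockout and 9 control cells), Gzmb at the right (8 and 12 cells), Cpa3 runs across 39 of 43 and 36 of 37 cells, and Cma1 appears in 2 and 1 cells.

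Within the gate, Mcpt8 and Cpa3 UMIs were found in the same cells, and Cpa3 was found in nearly all other members as well. Cpa3 had a UMI in 9 of 10 knockout cells with Mcpt8, a share of 90.0% (55.5 to 99.7), and in 9 of 9 control cells, a share of 100% (66.4 to 100). Among members without Mcpt8, Cpa3 had a UMI in 30 of 33 knockout cells and 27 of 28 control cells, so the shares within the gate show no link between the genes. Over all kept cells, Cpa3 had a UMI in 69 of 128 knockout cells with Mcpt8 (53.9%, 44.9 to 62.8) and in 77 of 146 control cells (52.7%, 44.3 to 61.1). In the 10 knockout cells with Mcpt8, ordered by their Mcpt8 UMIs of 12, 10, 8, 7, 5, 4, 3, 3, 2 and 2, Cpa3 had 18, 0, 4, 31, 18, 57, 4, 17, 5 and 30 UMIs. In the 9 control cells, with 82, 46, 26, 22, 9, 4, 4, 1 and 1 Mcpt8 UMIs, Cpa3 had 29, 46, 18, 28, 27, 19, 33, 41 and 30. One knockout cell with 10 Mcpt8 UMIs thus had none of Cpa3, and the control cells spanned a narrower range of Cpa3.

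The part of free RNA in these shares was not tested. In erythroid cells outside the gate, defined by at least 10 UMIs of Klf1 and with a median of 43206 and 45097 UMIs, Cpa3 had a UMI in 4.81% of knockout and 4.19% of control cells. Mcpt8 had one in 0.339% and 0.451%. After thinning to 15000 UMIs, which left out 14 knockout and 9 control members, Cpa3 was found in 2 of 3 knockout and 4 of 4 control cells with Mcpt8. After thinning to 8000 UMIs, a depth that every member reached, it was found in 9 of 10 and 8 of 8. Members with Mcpt8 were shallow cells, with median depths of 12715.5 (knockout) and 14731 UMIs (control), so thinning to 15000 kept few of them.

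No cell had UMIs of both Mcpt8 and Cma1, but Cma1 was too rare for shared cells to be detectable at this depth. Cma1 had a UMI in 2 knockout members, with 5 and 2 UMIs, and in 1 control member, with 1. None of the 10 and 9 members with Mcpt8 had Cma1, which allows a share of up to 30% in the knockout and 33.3% in the control. Over all kept cells, Cma1 had a UMI in 5 knockout and 7 control cells, and 0 of 128 knockout and 0 of 146 control cells with Mcpt8 had a Cma1 UMI, which allows up to 2.34% and 2.05%. The 2 knockout members with Cma1 also had the highest Cpa3 counts of the 43 knockout members, 238 and 203 UMIs, and 0 UMIs of Mcpt8 and of Apoe. The cell with 238 had 4 UMIs of the tryptase gene Tpsab1, the only ones in the gate. Tpsg1, another tryptase gene, had 18 UMIs in 2 knockout cells and 0 in the control. Set against a floor of 3 counts over the control members, its knockout level was 6.21-fold, which is not a lower bound.

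**Figure D2:**
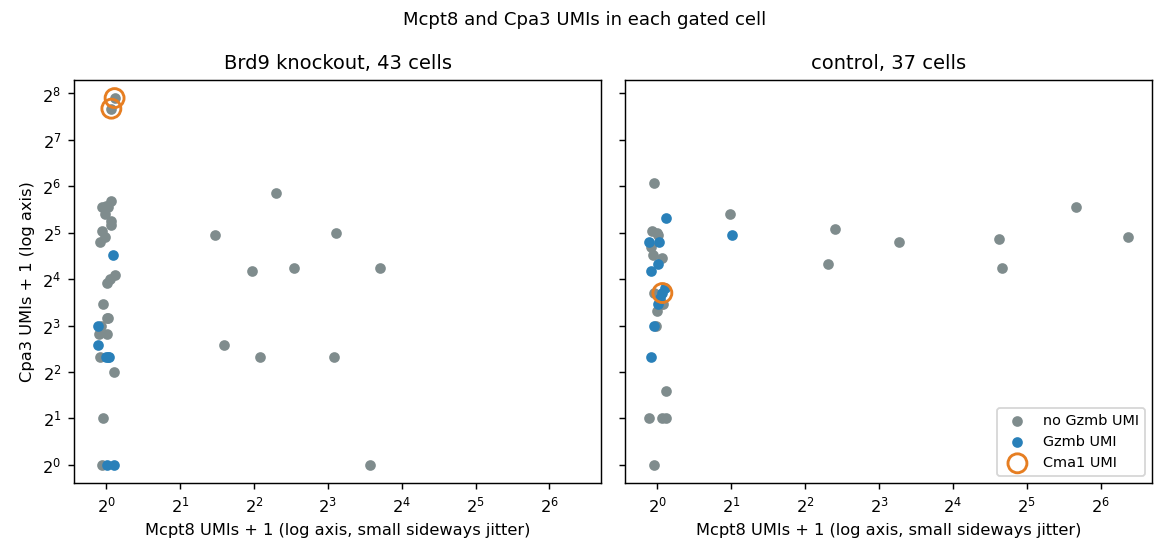
Cpa3 UMIs plus 1 against Mcpt8 UMIs plus 1 in each gated cell, both on log axes, for 43 knockout cells (left) and 37 control cells (right), with cells that had a Gzmb UMI in blue and those with a Cma1 UMI ringed. The 2 ringed knockout cells lie at the top of the Cpa3 axis and at 0 Mcpt8 UMIs, and all cells with Mcpt8 but 1 knockout cell had Cpa3.

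Among cells left out by the Mpo and Prtn3 limit, the share of Mcpt8 cells with Cpa3 was lower than in the gate in the knockout alone. Cpa3 had a UMI in 9 of 21 such knockout cells (42.9%, 21.8 to 66.0), against 9 of 10 in the gate. In the control it had one in 18 of 18 (100%, 81.5 to 100), against 9 of 9 in the gate. The 12 knockout cells with Mcpt8 and no Cpa3 held 4 to 10 Mcpt8 UMIs each. They had 0 UMIs of Ms4a2, 1 of Cd200r3 and 9 of Gata2, and 2804 CPM of Mpo and 2861 CPM of Prtn3. The 9 knockout cells left out with both Mcpt8 and Cpa3 had 28 UMIs of Ms4a2, and the 18 such control cells had 183. Cells left out by the limit hold at least 30 UMIs of Mpo and Prtn3 by definition, so their high levels of these genes show nothing further. Without Ms4a2, the sum of at least 4 must come from the other gate genes, so several Mcpt8 UMIs were favoured too. Cd200r3 and Gata2 were not used by the rule. Among cells left out with Mcpt8, Ms4a2 was detected in 4 of 21 in the knockout and 15 of 18 in the control. Some cells of each library thus had Mcpt8 and no Ms4a2 UMI.

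Mcpt8 and Gzmb split the gate into groups that differed in genes the rule did not use. A Gzmb UMI was seen in 0 of 10 knockout and 1 of 9 control members with Mcpt8. The rule adds these genes and so favours cells with much of 1 of them. Over all kept cells Mcpt8 was seen in 0 of 21 knockout and 2 of 24 control cells with Gzmb, counts too small to tell a split from the rarity of Mcpt8. The members fall into 10 knockout and 9 control cells with Mcpt8, 8 and 11 with Gzmb and no Mcpt8, and 25 and 17 with neither. The groups rest on 1 UMI or more, so a cell with neither gene may have had too few UMIs to show them.

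Members with Mcpt8 had more UMIs of other basophil genes. Cd200r3 stood at 948 CPM in knockout and 609 CPM in control cells with Mcpt8, against 0 and 29.3 CPM in cells with Gzmb and 188 and 36.5 CPM in cells with neither. Prss34, a basophil serine protease, stood at 217 and 137 CPM with Mcpt8, at 6.24 and 0 with Gzmb and at 7.90 and 12.8 with neither. It had a UMI in 5 of 10 and 5 of 9 members with Mcpt8, and 1 cell held 15 of 30 and 20 of 29 of these UMIs. Among knockout cells left out by the Mpo and Prtn3 limit, Cd200r3 had a UMI in 4 of 21 cells with Mcpt8 and 22 of 35 without, the other way round. Among such control cells it had one in 12 of 18 with Mcpt8 and 18 of 43 without, the same way as in the gate. Alox5, the enzyme that begins leukotriene synthesis, stood at 623 and 387 CPM with Mcpt8, at 237 and 112 with Gzmb and at 231 and 85.9 with neither. Cpa3 itself stood at 1332 and 1280 CPM in cells with Mcpt8. Cd200r3, Prss34 and Alox5 were thus highest in cells with Mcpt8 in both libraries, and Cpa3 in the control library alone. Knockout cells with neither gene stood at 1468 CPM of Cpa3, and single cells held 238 and 203 of those 929 UMIs.

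Cells with Gzmb had more of Mitf, the transcription factor that mast cells need, and of Kit. Mitf had 8 UMIs (49.9 CPM) in 4 of the 8 knockout cells with Gzmb. In the control it had 40 UMIs (196 CPM) in 7 of the 11 such cells, 15 of them in 1 cell. The cells with Mcpt8 had 2 and 3 Mitf UMIs. Kit stood at 218 and 469 CPM with Gzmb, against 65.2 and 75.6 CPM with Mcpt8. Meis1, a homeobox factor of early progenitors, stood at 624 and 362 CPM with Gzmb, against 86.9 and 94.5 CPM with Mcpt8. Ms4a2 stood at 12.5 CPM in knockout and 181 CPM in control cells with Gzmb, and 4 of the 8 knockout cells entered the gate on exactly 4 Gzmb UMIs. Genes of cytotoxic lymphocytes other than Gzmb and Nkg7 were at or near 0: Klrd1, Klrb1c, Ncr1, Gzma, Eomes, Tbx21 and Klrk1 had 0 UMIs in both libraries.

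**Figure D3:**
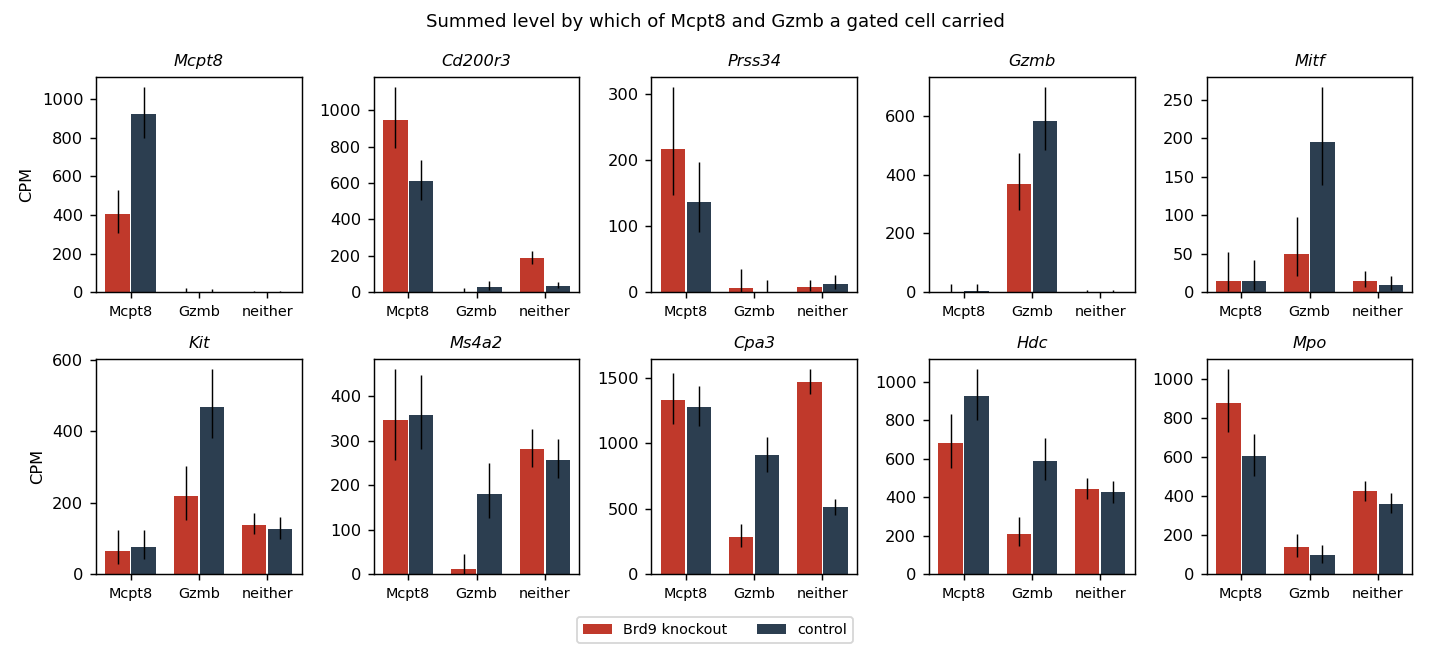
Summed level of 10 genes in CPM (bars, with exact Poisson 95% intervals that cover counting error only) in gated cells with a Mcpt8 UMI (10 knockout, 9 control), with Gzmb and no Mcpt8 (8 and 11), and with neither (25 and 17). Cd200r3 and Prss34 are highest in the Mcpt8 group and Mitf and Kit in the Gzmb group of both libraries. Mcpt8 and Gzmb define the groups.

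The genes most like Mcpt8 across members included other basophil genes. Likeness was the lower of the Spearman coefficients of depth-scaled values in the 2 libraries (43 and 37 cells), over 8731 genes seen in at least 10% of members of each. Il7r, the interleukin 7 receptor chain that also serves the TSLP receptor, ranked first, with 0.68 in the knockout and 0.90 in the control. It had a UMI in 7 of 10 knockout and 7 of 9 control cells with Mcpt8, against 3 of 33 and 0 of 28 without. Among cells left out by the Mpo and Prtn3 limit it had one in 1 of 21 and 3 of 18 cells with Mcpt8, against 3 of 35 and 1 of 43 without. Hk2, Cd200r4, Alox5ap and Cd200r3 followed, with lower values of 0.59, 0.58, 0.58 and 0.57. For Cpa3 the closest were Edem3, Il1rl1, Ppp3ca, Spcs2 and Map4, and Il1rl1, the IL-33 receptor, had 0.50 and 0.79. Mcpt8 against Cpa3 gave 0.16 and 0.42 and ranked 417 of the genes like Mcpt8. As 33 knockout and 28 control members had no Mcpt8 UMI, these values cannot show whether amounts matched within the cells that had both. These cells share a library and its depth, and the values are a description.

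Brd9 had 16 UMIs in 11 of 43 knockout members and 35 UMIs in 20 of 37 control members, 17.2 and 36.3 CPM, a log2 ratio of -1.08 (-2.03 to -0.19). In the other kept cells it stood at 7.06 and 27.2 CPM, a log2 ratio of -1.95. The chemistry reads transcript ends, and whether these lie in the floxed exons was not examined, so a UMI does not show an intact transcript. Bicra and Bicral, subunits of the same non-canonical BAF complex, gave 0.41 (-0.15 to 0.97) and 0.20 (-0.36 to 0.77) in members.

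Across 3942 genes with at least 50 CPM in members of either library, 216 were higher in the knockout by at least 1.5-fold (5.48%) and 182 were lower (4.62%). Together they were 10.1% of these genes, and 5.07% were higher and 4.31% lower with an interval that did not hold 0. The median log2 ratio was 0.03 and the central 90% ran from -0.56 to 0.61. The genes named next are the 12 highest and 12 lowest by the interval bound nearest 0, leaving out those of which 1 cell held over 20% of the UMIs. They were selected by this comparison, so their ratios describe these 2 libraries.

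The apolipoprotein genes Apoe and Apoc1 and the membrane protein gene Ifitm1 were lower in knockout members. Ifitm1 stood at 880 CPM (820 to 942) in knockout and 4721 CPM (4585 to 4861) in control members, a log2 ratio of -2.42 (-2.53 to -2.32). Its counts per cell ran from 0 through a median of 13 to 94 in the knockout and from 2 through 133 to 322 in the control. Apoe, which encodes a lipid carrier protein, stood at 481 CPM and 1450 CPM, a log2 ratio of -1.59 (-1.75 to -1.44). Its counts per cell ran from 0 through 6 to 54 in the knockout and from 5 through 37 to 104 in the control, so the cells of the groups overlapped. Apoc1, its neighbour on chromosome 7, gave -2.04 (-2.46 to -1.64). The chemokine gene Ccl9 stood at 52.6 and 300 CPM, a log2 ratio of -2.51 (-2.98 to -2.07).

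These 4 genes were lower in the knockout in each group of members. Apoe gave -2.78 in cells with Mcpt8, -1.20 in cells with Gzmb and -1.44 in cells with neither, and Ifitm1 gave -2.11, -2.72 and -1.87. Outside the gate the log2 ratios were -1.62 for Ifitm1, -1.64 for Ccl9, -2.07 for Apoc1 and -1.03 for Apoe, so lower levels were also measured there. Over 15 alternatives, including female and male cells alone, Apoe ranged from -2.78 to -1.43 and Apoc1 from -3.90 to -1.09, and Ifitm1 and Ccl9 were lower in each.

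The other genes lower in knockout members were Csf1, Fgfr2, Tgfbr3, Kcnn4, Hist1h2bc, Pde3b, Pdcd4 and Wee1. Csf1, the macrophage growth factor, stood at 50.5 and 164 CPM, a log2 ratio of -1.70 (-2.20 to -1.22), but at 2.56 among female cells. Fgfr2, a fibroblast growth factor receptor gene, gave -1.34 (-1.91 to -0.80), but 0.20 among female cells. Pde3b, a phosphodiesterase gene, stood at 203 and 403 CPM, a log2 ratio of -0.99 (-1.25 to -0.73). Female control members numbered only 5. Wee1, an inhibitor of entry into mitosis, stood at 24.7 and 65.4 CPM.

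Commd10 was the gene with the farthest bound among those higher in knockout members. It stood at 142 CPM (119 to 168) in knockout and 33.2 CPM (22.7 to 46.9) in control members, a log2 ratio of 2.09 (1.53 to 2.70). It had a UMI in 38 of 43 knockout and 19 of 37 control members, with medians of 2 and 1 UMIs. Its log2 ratio was 3.06 in cells with Mcpt8, 1.61 with Gzmb and 1.83 with neither, and 0.76 outside the gate. Rapsn, known for clustering acetylcholine receptors in muscle, stood at 51.5 and 12.5 CPM and had a UMI in 32 and 10 members. Ifitm2, a paralog of Ifitm1 on chromosome 7, went the other way, with 1597 and 711 CPM and a log2 ratio of 1.17 (1.04 to 1.30). By group, Ifitm2 gave 2.38 in cells with Mcpt8, 1.58 with Gzmb and 0.40 with neither. Without the Mpo and Prtn3 limit Ifitm2 gave 0.49, and outside the gate -0.02. How the counting treated reads shared by the paralogs was not examined.

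Alox5 was also among the genes higher in knockout members. It stood at 290 CPM (256 to 327) and 158 CPM (134 to 185), a log2 ratio of 0.88 (0.59 to 1.17), with a UMI in 42 of 43 and 28 of 37 members. It gave 1.86 in female cells, 0.36 in male cells and 0.51 without cells with erythroid genes, and the last 2 are below 1.5-fold. Outside the gate it gave 1.36, at 8.99 and 3.51 CPM. Hcst, the adaptor DAP10, gave 1.34 (0.67 to 2.04), and Dapp1, an adaptor that binds phosphoinositides, gave 0.88 (0.64 to 1.13). Acp5, an acid phosphatase gene, gave 1.65, and Psmb9, an immunoproteasome subunit gene, stood at 50.5 and 16.6 CPM. Fdps, an enzyme gene of isoprenoid synthesis, gave 1.14. Without the Mpo and Prtn3 limit Acp5 gave 0.22 and Fdps 0.12. Lockd, a noncoding RNA gene beside Cdkn1b, gave 1.13. Pclaf and Cenpf, a replication gene and a mitosis gene, gave 0.98 and 1.02, but -0.19 and -1.78 in cells with Mcpt8.

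**Figure D4:**
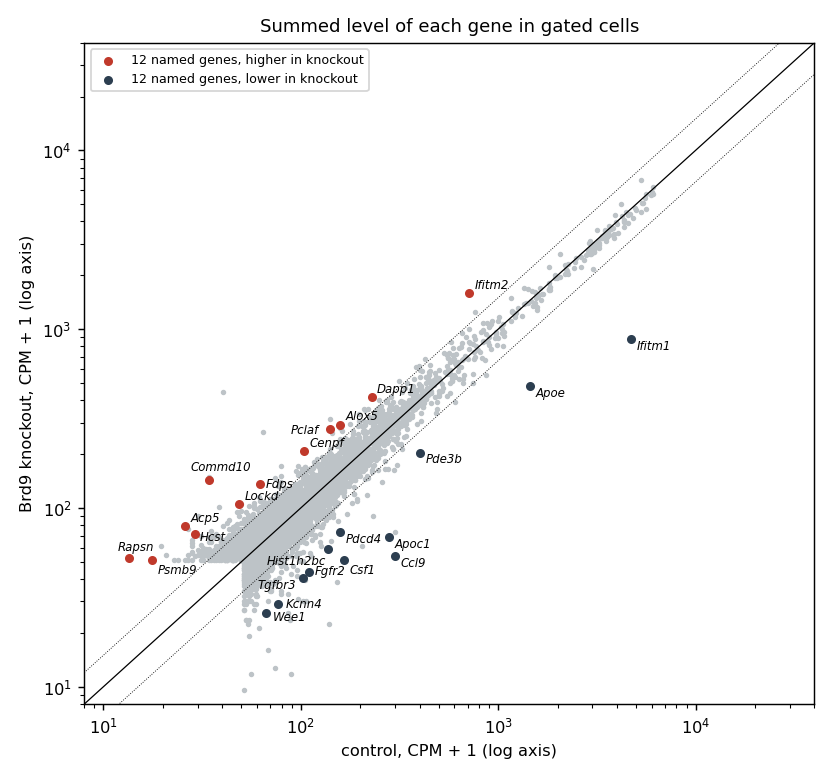
Summed level of each of 3942 genes in gated cells, as CPM plus 1 in the knockout against the control on log axes, with the line of equal level and dotted lines at 1.5-fold. The 12 named genes higher in the knockout are red and the 12 lower ones dark blue; Ifitm1 and Apoe lie below the line at 880 and 481 CPM against 4721 and 1450 CPM. Grey points farther out include genes that the naming rule leaves out, such as Hbb-bs, of which 1 cell held most UMIs.

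Cpa3 was higher in knockout members, but the size of the difference rested on few cells. The log2 ratio of summed UMIs was 0.70 (0.57 to 0.84), and 1 knockout cell held 20.5% of the UMIs. Without the top cell of each library the ratio was 0.48, and as a mean in which each cell weighs the same it was 0.22. The median knockout member had 14 UMIs and the median control member 19. Cpa3 gave 0.06 in cells with Mcpt8, -1.66 in cells with Gzmb and 1.52 in cells with neither. Among knockout cells with neither, single cells held 238 and 203 of the 929 Cpa3 UMIs, so that value also rests on few cells. Kit gave -0.41 (-0.74 to -0.07), with 0.21 when cells with Gzmb were left out. Gata2 gave 0.50 (0.30 to 0.70), but -0.02 among male cells, and Gata1 gave 0.11 (-0.31 to 0.52).

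Genes of the FceRI pathway did not move together. Of 18 members with at least 10 CPM, 5 were higher and 3 lower in the knockout by 1.5-fold, where 10.7% of 8942 genes at this level were higher and 11.6% lower. Their median log2 ratio was 0.07, against 0.01 over all these genes. The shared gamma chain gene Fcer1g stood at 679 and 423 CPM (0.68, 0.50 to 0.86). The adaptor gene Lat2 gave 0.72, the phospholipase gene Plcg2 0.74 and the kinase gene Syk 0.60, whereas Lyn, the kinase that starts the signal, gave 0.10 (-0.28 to 0.48). Fcer1a and Ms4a2, both gate genes, gave -0.95 and -0.11.

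Granule and mediator genes were also mixed. Of 12 basophil genes with at least 10 CPM, 2 were higher and 4 lower by 1.5-fold, with a median of -0.19. Over all genes at this level, 10.7% were higher and 11.6% lower. The lower basophil genes include the gate gene Mcpt8, at -1.75, of which 1 control cell held 42.1% of the UMIs. Cd200r3 gave 0.74 and its relative Cd200r4 0.95, while Il4 gave -0.46 (-0.97 to 0.04) and Prss34 0.05. Of 6 mast cell genes at this level, 2 were higher, Cpa3 and Tpsg1, and 1 lower, Mitf at -1.29 (-2.14 to -0.49), of which 1 control cell held 31.2%. Hdc gave -0.38 (-0.57 to -0.19) and Slc18a2, the vesicle transporter that loads histamine, 0.20 (-0.28 to 0.68). Srgn, the proteoglycan that packs granule proteases, stood at 1813 and 1807 CPM, a log2 ratio of 0.00 (-0.09 to 0.10). By group, Srgn gave 0.41 in cells with Mcpt8, -0.96 in cells with Gzmb and 0.30 in cells with neither. Among 9 lipid mediator genes 1 was higher, Alox5, and 2 lower, Ptges and Cysltr1, each on at most 11 UMIs a library.

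Among 20 cytokine and receptor genes, 6 were higher and 5 lower by 1.5-fold, against 10.7% and 11.6% of all genes at this level. Tgfbr1 gave 1.42 (0.85 to 2.02), with 22.6% of knockout UMIs in 1 cell, and Il9r gave 1.55 on 17 and 6 UMIs. Osm gave -2.37 on 3 and 16 UMIs and Csf1 -1.70. The receptors for IL-33 and IL-3 were level on these counts: Il1rl1 stood at 160 CPM in both libraries (0.00, -0.33 to 0.34) and Il3ra at 61.2 CPM in both (-0.00, -0.55 to 0.55). Among 16 adhesion genes 3 were higher and 6 lower.

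Of 27 transcription factor genes, 2 were higher, Nfil3 and Meis1, and 5 lower, where 10.7% and 11.6% of all genes were. Nfil3 gave 1.56 (0.61 to 2.59) and Meis1 0.73, whereas Lmo2 gave -1.81, Klf1 -1.67, Mitf -1.29 and Egr1 -1.22. Klf1 and Lmo2 are also high in erythroid cells. Among 24 BAF subunits 0 were higher and 1 lower, Brd9, and Smarca4, the ATPase, gave 0.28 (-0.09 to 0.65). Of 11 survival and death genes 1 was higher, Bcl2l1 at 1.05 on 40 and 20 UMIs.

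Most genes of mitosis had a ratio above 0, but fewer passed 1.5-fold. Of 20 G2 and M genes 19 were above 0, 8 were higher by 1.5-fold and 0 lower, against 10.7% and 11.6% of all genes, with a median of 0.54. Top2a, the DNA topoisomerase of dividing cells, stood at 513 and 313 CPM (0.71, 0.50 to 0.92), with a UMI in 34 of 43 and 24 of 37 members. Nusap1 gave 1.01, Ccnb1 0.81 and Mki67 0.54, and Aurka, the exception, gave -0.36 (-1.01 to 0.29). Of 20 S-phase genes 1 was higher and 0 lower, with a median of 0.12. In cells with Mcpt8 the G2 and M median was -0.88, and without the Mpo and Prtn3 limit it was 0.06. Summed over the 8 knockout cells with Gzmb, Mki67 had 88 UMIs, 51 of them in 1 cell. Over the 11 such control cells it had 12 UMIs.

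Erythroid genes were the list with the lowest median, -1.01, and their UMIs sat in few cells. Of 13 genes with at least 10 CPM, 3 were higher and 7 lower by 1.5-fold, where 10.7% and 11.6% of all genes were. Ermap gave -2.62, Rhag -2.24 and Klf1 -1.67, with a Klf1 UMI in 14 of 43 and 15 of 37 members. Hbb-bs gave 3.48, but 1 knockout cell held 88.6% of its UMIs. The median was 1.54 among male cells. The summed level of the 16 erythroid markers over cells ran from 39.8 through 182 to 20389 CPM in the knockout and from 0 through 289 to 3153 CPM in the control. Of 13 heme and iron genes 2 were higher and 5 lower, with a median of -0.19, and Tfrc, the transferrin receptor gene, gave -1.01. The part of erythroid transcripts in these ratios was not tested.

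Some markers of other lineages were present in most members. The megakaryocyte list summed to 491 and 426 CPM, against 253 and 203 CPM outside the gate, and had a UMI in 41 of 43 and 36 of 37 members, led by Rap1b and Plek. The stem cell list summed to 497 and 396 CPM, led by Meis1, and had a UMI in 42 and 37 members. The neutrophil and granulocyte-monocyte list summed to 581 and 501 CPM, below the 906 and 1827 CPM outside the gate, which limits Mpo, Prtn3, S100a8 and S100a9. The erythroid list summed to 1098 and 822 CPM, below the 5252 and 6068 CPM outside. Some members of these and other marker lists were at or near 0. Of 10 eosinophil markers, Prg3 and Ear6 had 0 UMIs, Epx had 1 and 0 and Prg2 had 0 and 1, while Siglecf stood at 23.6 and 28.0 CPM. Of 12 neutrophil and granulocyte-monocyte markers, Camp, Ltf, Ngp and Cebpe had 0 UMIs, and Mpo, which the gate limited, stood at 441 and 359 CPM. The hepatocyte gene Alb had 0 knockout and 1 control UMI, and of 11 lymphoid markers only Il7r reached 10 CPM. Of the 11 megakaryocyte markers Gp1bb and Ppbp had 0 UMIs, and of 12 stem cell markers Mecom, Procr and Ly6a had 0. Of 10 monocyte and dendritic markers Fcgr1, Siglech and H2-Aa had 0, and Ccr2 gave -0.86. As a whole, the monocyte and dendritic list summed to 139 and 186 CPM, above the 31.5 and 75.5 CPM outside the gate. It had a UMI in 32 of 43 and 34 of 37 members.

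**Figure D5:**
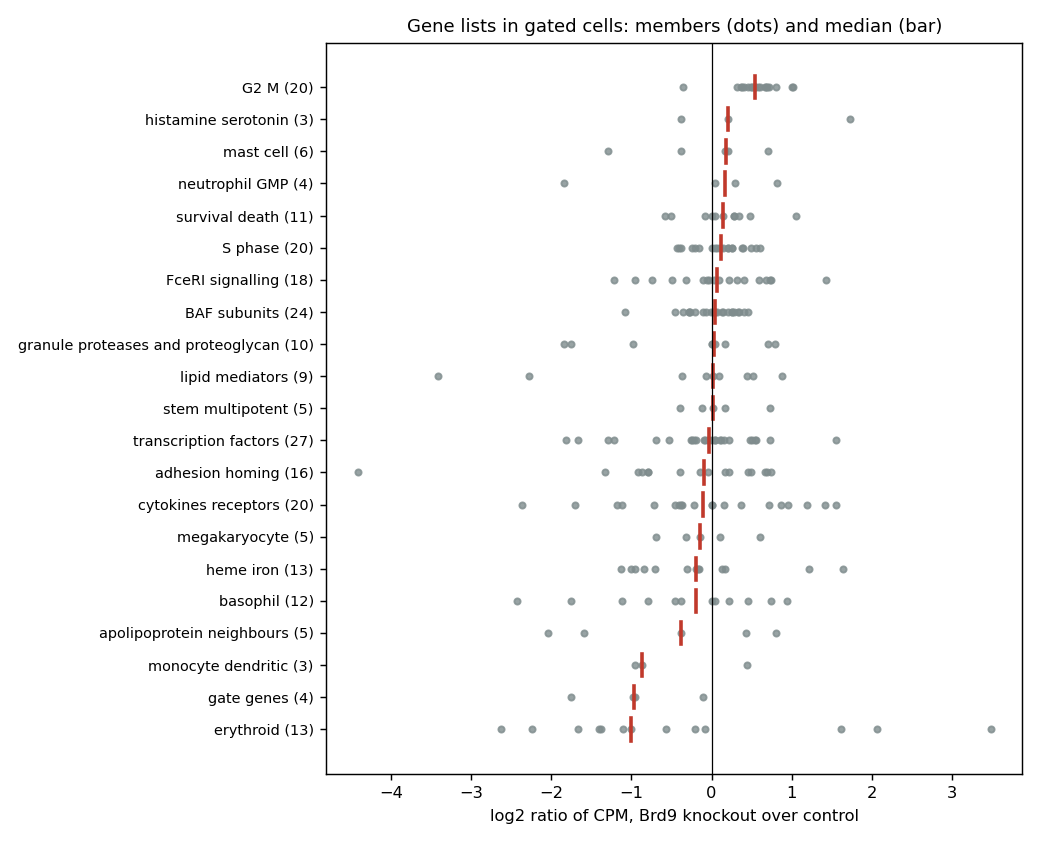
Log2 ratio of CPM, knockout over control, for members with at least 10 CPM (dots) of the gene lists with at least 3 such members (their number in parentheses), and the median of each list (bar). The G2 and M dots lie to the right of 0 but for Aurka and have the highest median, 0.54, while the erythroid list has the lowest, -1.01. Tpsg1, at 0 in the control, has no dot.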

How the data were processed

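The authors deposited whole-number UMI counts per gene and barcode, with no normalization, made with Cell Ranger 7.2.0 on mm10, per the submitters' processing notes. The labels do not say if reads in introns entered the counts. Each library listed 32285 genes, of which 32235 matched GENCODE M21 by identifier. The knockout library held 271350214 UMIs in 7289 barcodes and the control library 292972312 in 7399. Barcodes below 1000 genes or 2000 UMIs, or above 10% mitochondrial UMIs, were dropped, leaving cells with medians of 36264 and 38959.5 UMIs.

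UMIs of gated cells were summed per library (931181 and 963697 UMIs) and scaled to CPM. Log2 ratios set the knockout over the control and carry a conditional exact interval; levels have exact Poisson and shares exact Clopper-Pearson intervals. Ratios of shares have log-normal intervals. Intervals cover counting error only, and a count of 0 has a floor of 3 counts. Past 1.5-fold served as the call, with no test. Ratios were first tried on simulated counts of known folds. Doublets were marked with Scrublet in scanpy 1.11.5 at an expected rate of 6% and kept. Cells with at least 3 Xist and at most 1 Y-linked UMI were called female, those with at most 1 Xist UMI male. Named genes were fixed genes, the 12 highest and 12 lowest by interval bound, the 20 highest against other cells, the 5 most alike, and up to 4 members per list. Sex-linked transcripts, ribosomal, mitochondrial and predicted genes were left out of the ranking. Python 3.11.15, scipy 1.17.1 and pandas 2.3.3 were used. The members, the 25 gene lists and the rule were chosen with earlier results of these data known. Alternatives changed the gate, the cells, the minimum level, the scaling and the weighting. Some members of the lists are counted but not reported by name here.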

Additional observations from a re-analysis of the deposited data

Results flagged for a closer look

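Hist1h2bc, a histone H2B gene, had a log2 ratio of knockout over control of -1.23 over all gated cells, but 2.03 among female cells and -1.99 among male cells. The signs in the sexes differ, and the difference was not tested. Female control cells numbered 5 in the gate.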

How the results depend on the processing

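The counts of genes past 1.5-fold, 216 higher and 182 lower, moved with the number of cells and the minimum level. They were 339 and 381 with 8 UMIs of the gate genes, 602 and 670 with 2 gate genes required, 891 and 812 in female cells, 494 and 372 in male cells, 951 and 1036 in cells with Mcpt8, 602 and 591 at 20 CPM and 75 and 64 at 100 CPM. Without the Mpo and Prtn3 limit, an alternative added after seeing the data, they were 60 and 77, and without cells with erythroid genes 304 were lower. Median-of-ratios scaling gave 189 and 209, against a main split of 216 and 182, and shifted all ratios by 0.03. The share ratio was 0.700 with the gate on thinned cells. Lists with a median below 0 numbered 11 of 24, and 6 in female cells.

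Of 461 log2 ratios of named genes under alternatives, 6 of called genes changed sign and 114 moved: Cenpf at -0.46 with 2 gate genes required and -1.78 in cells with Mcpt8, Pclaf at -0.19 in cells with Mcpt8, and Csf1 at 2.56, Fgfr2 at 0.20 and Hist1h2bc at 2.03 in female cells. Of 306 list medians under alternatives, 81 had another sign than the main value, in 23 of 24 lists, and the G2 and M list was at -0.88 in cells with Mcpt8 and -0.52 with 2 gate genes required. Medians past 1.5-fold that changed sign were the gate genes at 0.68 in female cells, the erythroid list at 1.54 in male cells, and the monocyte and dendritic list at 0.39 in cells without Mcpt8 and 0.47 without the Mpo and Prtn3 limit. The cause was not tested. Rapsn and Hcst in female cells, Tgfbr3 and Kcnn4 in cells with Mcpt8, the eosinophil and lymphoid lists in female cells and the erythroid list in cells with Mcpt8 gave no value, as a group was at 0. Among cells with Mcpt8, the thinned share with Cpa3 was 33.3% in the knockout and 93.8% in the control without the Mpo and Prtn3 limit. With 43 and 37 cells, 1 cell can set a value. No paired analysis was possible because each genotype has 1 library and no replicate number.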
